A study of Mus musculus with 6 samples.

Results

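Hepatic stellate cells were followed through 10 of their marker genes, taken by symbol from the 22851 genes of an expression matrix of mouse liver. All 10 were found. They are 5 genes tied to the quiescent state (Lrat, Reln, Hgf, Ecm1 and Colec11), 3 genes of PDGF receptors and desmin (Pdgfra, Pdgfrb and Des) and 2 genes tied to activation (Acta2 and Vim). The tissue was whole liver of male C57BL/6J mice, an inbred strain, all fed a high-fat diet. Treated mice received ONX-0914, an inhibitor of the immunoproteasome subunit PSMB8, at 10 mg/kg under the skin every other day for 6 weeks, and the remaining mice received vehicle. Each group had 3 libraries, ONX-0914 1, 3 and 4 and vehicle 1, 2 and 4, while the design text gives 2 animals per group. It is thus not known which libraries are separate animals, and p-values cover only how these libraries vary, which may be technical. Age and diet length are not stated in the labels.

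Stellate cells lie between hepatocytes and the sinusoidal endothelium and, when quiescent, store vitamin A as retinyl esters. After injury they lose the retinoid droplets, express contractile filaments, become responsive to PDGF and deposit matrix as myofibroblasts. Quiescent stellate cells also secrete hepatocyte growth factor and several other soluble proteins that act on their neighbours.

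With ONX-0914 all 10 genes had a lower mean, and genes of quiescence and of activation were both among those called lower. Values were taken to be FPKM, read numbers scaled by gene length and library size, as deposited. Differences were tested on log2(FPKM + 1) with limma and called at a Benjamini-Hochberg adjusted p under 0.05 over all 10743 genes tested, and fold changes are ONX-0914 minus vehicle on that scale. Of the 9 members that entered the test 7 were called lower and 0 higher, where 43.5% of all tested genes were called lower and 2.56% higher. The median fold change of these 9 members was -1.12, against -0.64 for all tested genes. Pdgfra did not enter, since it was above 1 FPKM in only 2 libraries, and Pdgfrb entered through its 3 vehicle libraries alone, so the count holds a member that could only enter by being high in vehicle. In a fit with no filter on low values, which took in all 10, 7 were lower (Pdgfra in, Lrat out) and 0 higher, where 29.1% of 16087 genes were lower and 1.30% higher. The median gene was far below 0, so values are also given after median-ratio scaling, in which every library is divided by its typical ratio to the geometric mean of the 6, and where the median of all genes was -0.01. In bulk liver, fewer stellate cells and less RNA per stellate cell cannot be told apart.

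The libraries differed in ways that touch every member. The FPKM values summed to 1146952, 1041391 and 1247789 in ONX-0914 1, 3 and 4, and to 993264, 1007087 and 1074027 in vehicle libraries 1, 2 and 4. Total read numbers were not given and the absolute depth is unknown, but low values gave depths relative to vehicle 1 of 1.02, 0.864 and 0.915 for ONX-0914 1, 3 and 4 and of 1.28 and 1.13 for vehicle 2 and 4. ONX-0914 3 stood apart from its group and correlated at 0.958, over tested genes, with vehicle 2, above its 0.946 and 0.954 with ONX-0914 1 and 4. With vehicle 1 and 4 it correlated at 0.949 and 0.950, between those 2 values. Long transcripts were lower relative to short ones in the treated libraries, most so in ONX-0914 1 and 4. For the tested members, results that turn on a single library or on transcript length are given with both. For the related gene lists the dependence on length is given as counts and in the last section.

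Lrat encodes lecithin retinol acyltransferase, which esterifies retinol for storage, and is the marker most used to define stellate cells (chr3:82892579-82903973 of GRCm38, minus strand). It was at 5.62, 1.34 and 1.07 FPKM in treated libraries 1, 3 and 4, against 8.16, 5.42 and 6.26 in vehicle libraries 1, 2 and 4. ONX-0914 1 lay within the vehicle range, while ONX-0914 3 and 4 lay well under it. Lrat averaged 2.68 ± 2.55 FPKM with ONX-0914 and 6.61 ± 1.40 FPKM with vehicle (SD, n = 3 each), and the fitted log2 difference was -1.25 (SE 0.43, limma adjusted p = 0.0390). Leaving out ONX-0914 1 gave -1.78 (limma adjusted p = 0.00669), while leaving out any other library ended the call, with adjusted p between 0.0648 and 0.140. Scaled by median ratio Lrat was at -0.62 (adjusted p = 0.340).

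Reln encodes reelin, a large secreted glycoprotein known from neuronal migration that quiescent stellate cells also express (chr5:21884454-22344702, minus strand). It was at 0.42, 1.46 and 0.22 FPKM in treated libraries 1, 3 and 4, against 5.33, 4.45 and 3.86 in vehicle libraries 1, 2 and 4. No treated library came near the vehicle range, and ONX-0914 3 was the highest of the 3 treated ones. The log2 fold change was -1.77 (SE 0.29, limma adjusted p = 0.00287), the largest of the 9 tested members, and -1.33 scaled by median ratio (adjusted p = 0.0136). Reln was called lower in each of the 20 settings fitted, with adjusted p between 0.000110 and 0.0160, and none of the other 8 tested members was. Its longest coding transcript, of 11699 bases, was also the longest among the 10 genes.

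Hgf encodes hepatocyte growth factor, the ligand of the receptor MET and a mitogen for hepatocytes (chr5:16553495-16620152, plus strand). It was at 0.88, 1.21 and 0.51 FPKM in treated libraries 1, 3 and 4, against 3.20, 3.22 and 3.73 in vehicle libraries 1, 2 and 4. The groups did not overlap and the 3 vehicle values lay close together. The log2 fold change was -1.25 (SE 0.23, limma adjusted p = 0.00382), and -0.77 scaled by median ratio (adjusted p = 0.0267).

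Colec11 encodes collectin-11, a lectin of the complement system (chr12:28594173-28623377, minus strand). It was at 42.0, 24.7 and 21.1 FPKM in treated libraries 1, 3 and 4, against 63.0, 56.8 and 64.4 in vehicle libraries 1, 2 and 4. All 3 treated libraries were below vehicle, ONX-0914 1 least so. Its log2 fold change was -1.10 (SE 0.27, limma adjusted p = 0.0107), and -0.32 scaled by median ratio, where it was not called (adjusted p = 0.456).

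Ecm1 encodes extracellular matrix protein 1, a secreted protein that restrains the release of active TGF-β in liver (chr3:95734147-95739569, minus strand). It was at 39.4, 17.4 and 15.0 FPKM in treated libraries 1, 3 and 4, against 30.7, 28.5 and 31.1 in vehicle libraries 1, 2 and 4. The treated libraries lay on both sides of the vehicle range, with ONX-0914 1 the highest of all 6. Its change of -0.45 on the log2 scale (SE 0.34, limma adjusted p = 0.291) did not pass. Without ONX-0914 1 it was -0.86 and passed (adjusted p = 0.0222), and scaled by median ratio it was 0.33 (adjusted p = 0.540), so its call rests on that library and its direction on the scaling.

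**Figure D1:**
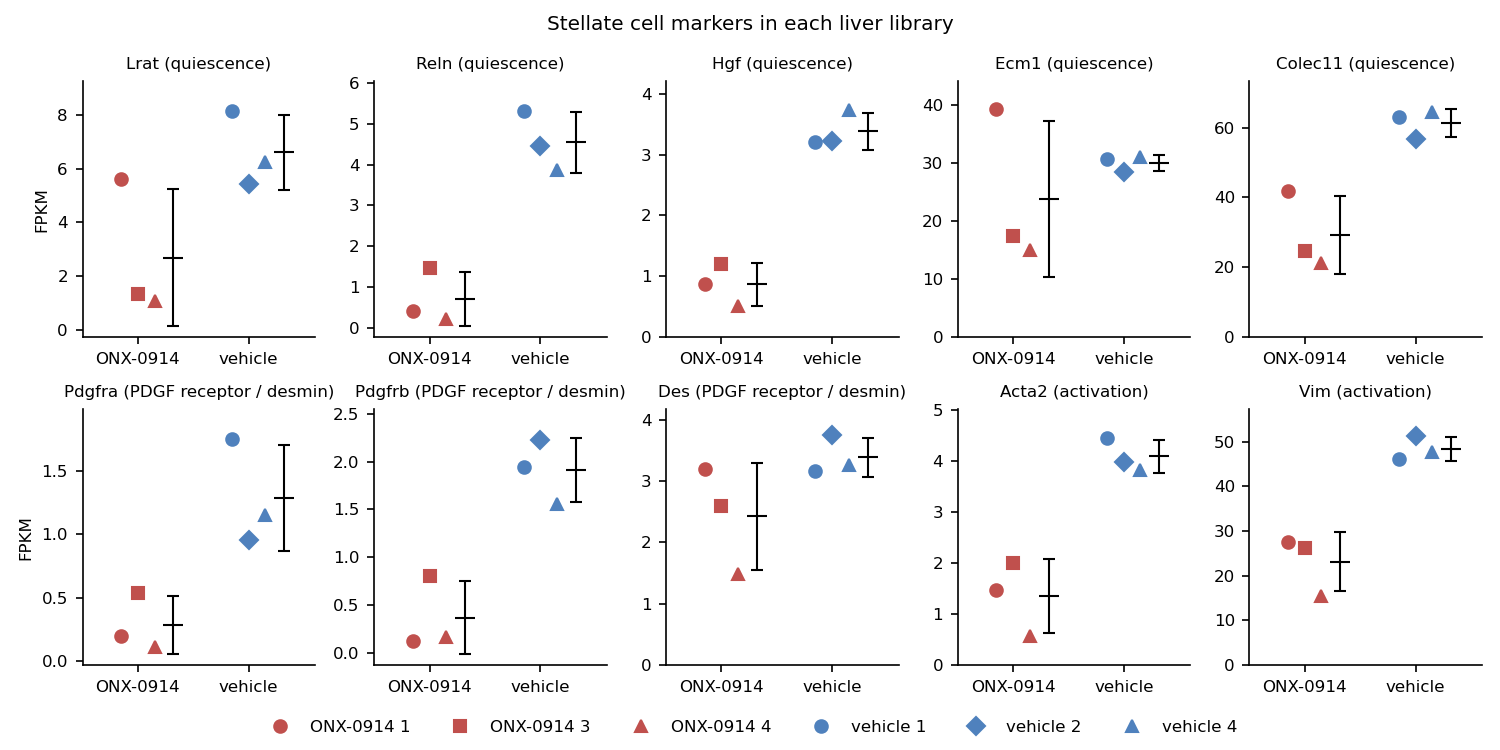
FPKM of the 10 markers in each library. Points are the 3 libraries of each group, and the bar with caps beside them is the mean ± SD. Reln, Hgf, Colec11, Pdgfra, Pdgfrb, Acta2 and Vim do not overlap between groups, while Lrat, Ecm1 and Des overlap through ONX-0914 1.

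Pdgfra and Pdgfrb encode the receptor tyrosine kinases for PDGF, the main mitogen of stellate cells, and fibroblasts of the portal tract express them too. Pdgfrb was at 0.13, 0.81 and 0.17 FPKM in treated libraries 1, 3 and 4, against 1.94, 2.23 and 1.56 in vehicle libraries 1, 2 and 4. All treated libraries were lower, with ONX-0914 3 between the other treated libraries and vehicle. The log2 fold change was -1.12 (SE 0.23, limma adjusted p = 0.00602), which becomes -2.38 with 0.1 in place of 1 added before the log. Pdgfrb stayed called after scaling by median ratio, at -0.80 (adjusted p = 0.0306), but not in ONX-0914 3 alone against vehicle (-0.68). As it passed the filter through vehicle alone, it could only be lower. Pdgfra (chr5:75152292-75198215, plus strand) was at 0.20, 0.54 and 0.11 FPKM in treated libraries 1, 3 and 4, against 1.75, 0.95 and 1.15 in vehicle libraries 1, 2 and 4. It had the same order of treated libraries as Reln, ONX-0914 3 first, and did not overlap with vehicle. In the fit without a filter Pdgfra was at -0.83 (SE 0.19, limma adjusted p = 0.0191).

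Des encodes desmin, the intermediate filament that marks stellate cells in rodents in the quiescent and the activated state (chr1:75360329-75368579, plus strand). It was at 3.20, 2.60 and 1.48 FPKM in treated libraries 1, 3 and 4, against 3.16, 3.75 and 3.26 in vehicle libraries 1, 2 and 4. ONX-0914 1 was at the vehicle level. Its change of -0.39 on the log2 scale (SE 0.27, 95% interval -0.99 to 0.21, limma adjusted p = 0.248) did not pass in any of the 20 settings, and it was 0.20 scaled by median ratio.

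Acta2 encodes α-smooth muscle actin, the contractile filament by which activated stellate cells are recognised, and is also made by the smooth muscle of vessels (chr19:34241090-34255590, minus strand). It was at 1.47, 2.00 and 0.57 FPKM in treated libraries 1, 3 and 4, against 4.45, 3.99 and 3.83 in vehicle libraries 1, 2 and 4. The groups did not overlap, and the vehicle libraries differed little among themselves. Acta2 averaged 1.35 ± 0.723 FPKM with ONX-0914 and 4.09 ± 0.322 FPKM with vehicle (SD, n = 3 each). The fitted log2 difference was -1.17 (SE 0.28, limma adjusted p = 0.0104), and was at -0.64 scaled by median ratio, where it was not called (adjusted p = 0.0829). Of the muscle actin genes near-identical to it, Acta1, Actc1 and Actg2 were at no more than 0.27 FPKM in any treated library and 0.37 in any vehicle library.

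Vim encodes vimentin, an intermediate filament that increases with activation, but endothelial cells and macrophages contain it as well (chr2:13573927-13582826, plus strand). It was at 27.6, 26.3 and 15.5 FPKM in treated libraries 1, 3 and 4, against 46.1, 51.2 and 47.7 in vehicle libraries 1, 2 and 4. All treated libraries were below vehicle. The log2 fold change was -1.07 (SE 0.25, limma adjusted p = 0.00963), and -0.30 scaled by median ratio, where it was not called (adjusted p = 0.371).

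The order of levels within a group changed little. Colec11 was the highest member in both groups, followed by Ecm1 and Vim in ONX-0914 and by Vim and Ecm1 in vehicle livers. Ecm1 at 23.9 ± 13.5 and Vim at 23.1 ± 6.63 FPKM did not differ beyond their spread in treated livers, whereas Vim at 48.3 ± 2.60 and Ecm1 at 30.1 ± 1.44 FPKM were apart in vehicle livers. Reln had rank 8 in treated and rank 5 in vehicle livers. Pdgfra was the lowest in both.

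Each treated library had its own profile over the 10 genes. ONX-0914 3 and ONX-0914 4 were below every vehicle library in all 10, where 64.6% and 75.9% of tested genes were. ONX-0914 1 was below every vehicle library in 7, where 72.4% of tested genes were, the exceptions being Lrat, Ecm1 and Des. ONX-0914 4 was the lowest of the 6 libraries in 9 members, with Pdgfrb, lowest in ONX-0914 1, as the exception. In 7 of the 10 genes every treated library was under every vehicle library, and in 0 every treated library was above, where 53.5% and 4.93% of tested genes were.

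**Figure D2:**
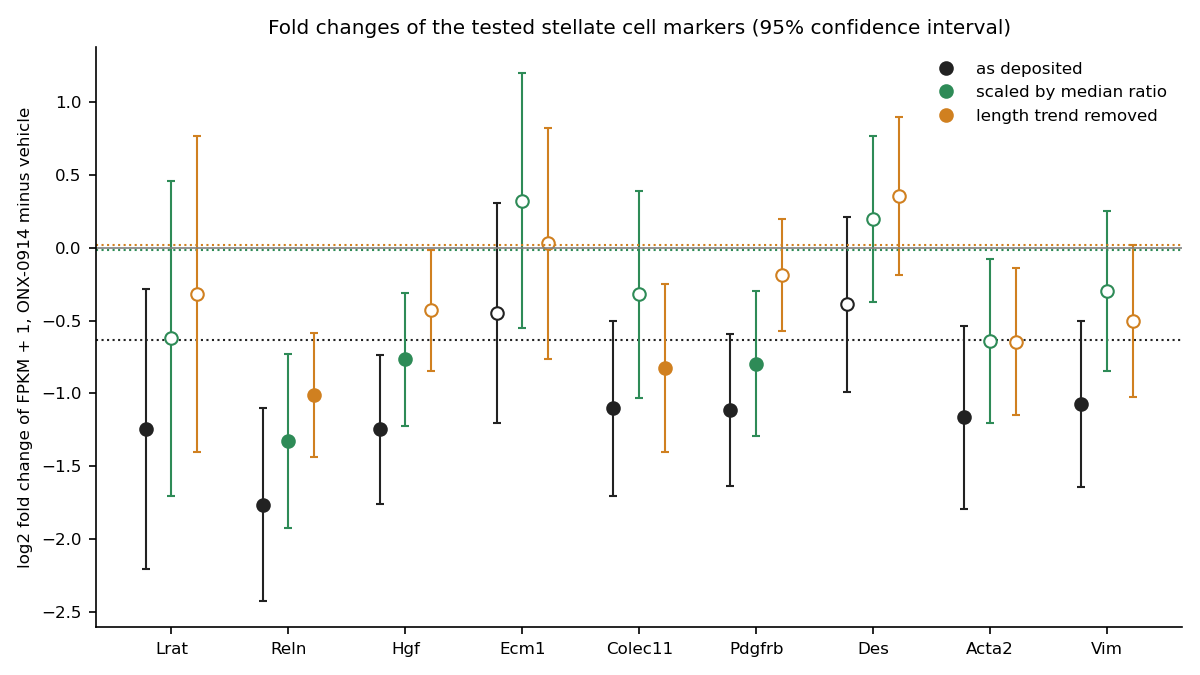
Log2 fold changes of FPKM + 1, ONX-0914 minus vehicle, of the 9 tested markers with their 95% confidence intervals. Filled points have a limma adjusted p under 0.05, and the dotted lines are the medians of all 10743 genes. In the deposited values 7 markers are filled, against 3 after median-ratio scaling (Reln, Hgf and Pdgfrb) and 2 after length-trend removal (Reln and Colec11). Pdgfrb passed the filter through vehicle alone.

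The balance of quiescence against activation genes was read within each library, where the scaling of the library cancels apart from the value added before the log. The mean log2(FPKM + 1) of the 5 quiescence genes was 2.98, 2.51 and 2.08 in treated libraries 1, 3 and 4, against 3.78, 3.59 and 3.68 in vehicle libraries 1, 2 and 4. For Acta2 and Vim it was 3.07, 3.18 and 2.35 in treated libraries 1, 3 and 4, against 4.00, 4.01 and 3.94 in vehicle libraries 1, 2 and 4. Both sets were lower in every treated library as deposited. After median-ratio scaling the quiescence mean of ONX-0914 1, at 3.38, lay within the vehicle values of 3.24 to 3.39, and with the length trend removed it was 3.73, against 3.59 to 3.75 in vehicle libraries. The quiescence mean minus the activation mean averaged -0.34 ± 0.30 with ONX-0914 and -0.30 ± 0.11 with vehicle (SD, n = 3 each), a difference of -0.04 that is smaller than the spread between libraries. ONX-0914 3 stood apart at -0.67, and ONX-0914 1 and 4 at -0.09 and -0.27 lay on either side of the vehicle value nearest to 0, -0.22. The difference was -0.21 with 0.1 in place of 1 added before the log, and -0.37 for ONX-0914 3 alone against vehicle. It was 0.06 with the length trend removed and 0.12 without ONX-0914 3, so its sign turned on the setting. As this is a score over chosen genes it has no p-value.

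**Figure D3:**
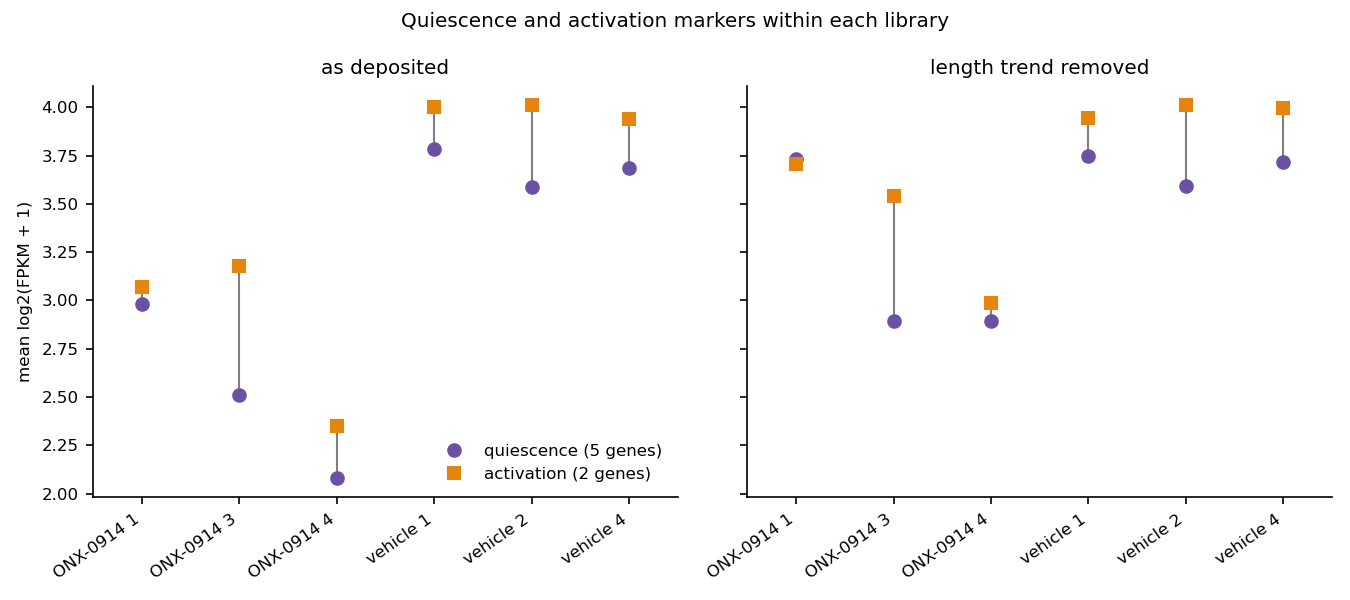
Mean log2(FPKM + 1) of the quiescence genes (Lrat, Reln, Hgf, Ecm1, Colec11, circles) and of the activation genes (Acta2, Vim, squares) in each library, as deposited and with the length trend removed. The 2 means are closest in ONX-0914 1 and farthest apart in ONX-0914 3. As deposited both means are lower in every treated library, while the gap between them overlaps between groups.

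Gene by gene the balance was not uniform. The ratio of Reln to Acta2 FPKM was 0.286, 0.730 and 0.386 in treated libraries 1, 3 and 4, against 1.20, 1.12 and 1.01 in vehicle libraries 1, 2 and 4, so the ratio was lower in all treated libraries. With the length trend removed, the difference of Reln and Acta2 from the vehicle mean on log2(FPKM + 1) left a gap of -0.62, -0.44 and -0.04 in treated libraries 1, 3 and 4, against 0.16, 0.01 and -0.17 in vehicle libraries 1, 2 and 4, so ONX-0914 4 then lay within vehicle. The ratio of Ecm1 to Acta2 was 26.8, 8.70 and 26.3 in treated libraries 1, 3 and 4, against 6.90, 7.13 and 8.12 in vehicle libraries 1, 2 and 4, the opposite direction in all treated libraries. For Ecm1 that gap was 1.36, -0.01 and 0.68 in treated libraries 1, 3 and 4, against -0.07, -0.05 and 0.12 in vehicle libraries 1, 2 and 4, with ONX-0914 3 within vehicle. On the same scale before length-trend removal ONX-0914 3 was at 0.005, also within the vehicle values of -0.07 to 0.12. The ratio of Lrat to Acta2 was 3.82, 0.670 and 1.88 in treated libraries 1, 3 and 4, against 1.83, 1.36 and 1.63 in vehicle libraries 1, 2 and 4. The treated libraries thus lay both above and below vehicle for Lrat. With the length trend removed the gap of Lrat and Acta2 was 1.35, -0.76 and 0.39 in treated libraries 1, 3 and 4. In vehicle libraries 1, 2 and 4 it was 0.19, -0.19 and 0.00, so treated libraries again lay on both sides. Relative to Vim, Hgf was lower in all treated libraries, at 0.0319, 0.0461 and 0.0329, against 0.0694, 0.0629 and 0.0783 in vehicle libraries 1, 2 and 4. On log2(FPKM + 1) the gap of Hgf and Vim overlapped before any length correction, at -0.43, -0.13 and 0.04 in treated libraries 1, 3 and 4. Vehicle libraries 1, 2 and 4 were then at 0.01, -0.14 and 0.13. With the length trend removed it also overlapped, at -0.13, -0.03 and 0.37 in treated libraries 1, 3 and 4. Vehicle libraries 1, 2 and 4 were there at 0.00, -0.13 and 0.13. Colec11 relative to Vim averaged 1.27 ± 0.301 with ONX-0914 and 1.27 ± 0.144 with vehicle. With the length trend removed the gap of Colec11 and Vim was -0.17, -0.53 and -0.29 in treated libraries 1, 3 and 4. Vehicle libraries 1, 2 and 4 were at 0.14, -0.19 and 0.05. ONX-0914 3 and 4 thus lay below vehicle and ONX-0914 1 within it.

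Transcript length moved with these results. Tested genes were split by their longest coding transcript into 4 bins of near-equal size. The bin of shortest transcripts, up to 1841 bases, had medians of -0.10, -0.21 and -0.16 in ONX-0914 1, 3 and 4 relative to the vehicle mean, and 20.99% of its genes were called lower. The bin of longest transcripts, from 4333 bases, had medians of -1.04, -0.46 and -1.15, and 60.2% were called lower. The vehicle libraries lay between -0.06 and 0.07 in all bins. Lrat, Reln, Pdgfra and Pdgfrb fall in the longest bin, Hgf and Des in the next, Acta2, Vim and Ecm1 in the second shortest and Colec11 in the shortest. Over the 10 members the Spearman correlation of length with the log2 ratio to vehicle was -0.69, -0.47 and -0.79 in ONX-0914 1, 3 and 4, but also -0.70 in vehicle 4 and 0.42 in vehicle 1. These are given as descriptions of 10 genes that share each library. Reln lay below the median of its bin in all treated libraries, at -1.96, -1.16 and -2.18 in ONX-0914 1, 3 and 4. Lrat was above the median of its bin in ONX-0914 1, at -0.19, and below it in ONX-0914 3 and 4, at -1.69 and -1.86. Pdgfrb was at -1.36, -0.68 and -1.31 and Pdgfra at -0.91, -0.55 and -1.02 in the same libraries, nearer to the bin's medians than Reln. With 1 added before the log and vehicle means of 1.91 and 1.28 FPKM, both had little room to fall further. The scale thus limits this contrast with Reln. As a share of the vehicle mean FPKM in ONX-0914 1, 3 and 4, Pdgfrb was at 6.81%, 42.4% and 8.90%. Pdgfra was at 15.6%, 42.1% and 8.57%, and Reln at 9.24%, 32.1% and 4.84%.

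With the length trend of each library removed, Reln was at -1.01 (SE 0.19, limma adjusted p = 0.0121) and Colec11 at -0.83 (SE 0.25, limma adjusted p = 0.0498), and these 2 of the 9 tested members were called lower and 0 higher. Of all tested genes 11.5% were called lower and 9.54% higher there. Acta2 was at -0.64 (adjusted p = 0.0702) and Vim at -0.50 (adjusted p = 0.146). Hgf was at -0.43 (adjusted p = 0.124), Lrat at -0.32 (adjusted p = 0.657) and Pdgfrb at -0.19 (adjusted p = 0.441). The low level of Pdgfrb limits how far it can fall on this scale, so its value here cannot be set against the others. Des was at 0.36 and Ecm1 at 0.03, both with the opposite sign to the deposited values and not called. Scaled by median ratio 3 members were called lower (Reln, Hgf and Pdgfrb) and 0 higher, where 14.2% of all tested genes were lower and 13.8% higher. Pdgfrb among them had passed the filter through vehicle alone. Quantile normalized, 1 member (Reln) was lower and 0 higher, where 12.4% of all tested genes were lower and 10.4% higher. For ONX-0914 3 alone, the treated library with the weakest length trend, 7 members (Ecm1 in, Pdgfrb out) were under vehicle by the same test and 0 above it, where 27.9% of all genes were lower and 2.88% higher. That fit takes its spread from the vehicle libraries and assumes that the lone library varies as they do. Lrat there was at -1.69 (adjusted p = 0.00474) and Ecm1 at -0.76 (adjusted p = 0.0182).

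**Figure D4:**
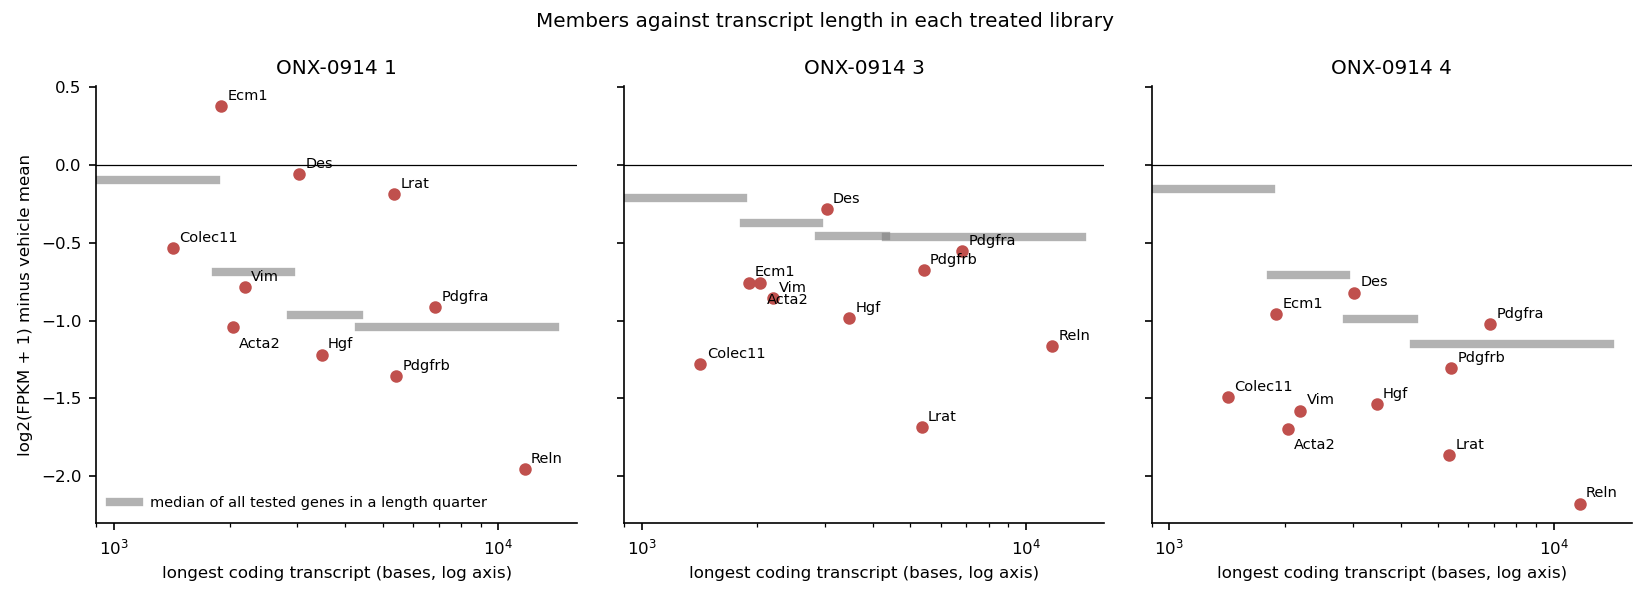
Difference from the vehicle mean in log2(FPKM + 1) of each marker against its longest coding transcript (log axis), in each treated library. Grey bars are the medians of all tested genes in the 4 length bins. Reln lies under its grey bar in all 3 libraries, and Lrat lies above it in ONX-0914 1 and below it in the others.

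Promoters are shown for Lrat, the defining marker, for Reln, called lower in each setting, and for Acta2, the marker of activation. RefSeq promoter sequences of GRCm38.p6 matched 9 members, all but Pdgfrb. The 250 bases before each RefSeq start were searched on both strands. The motifs were the CArG box, the site of serum response factor in contractile genes, TGANTCA, the AP-1 site, and TATAAA. RefSeq starts can differ from those of the gene spans given above. The Acta2 and Colec11 windows lie partly within those spans, and the Vim window and a further Hgf window wholly within them. Capitals mark CArG boxes with 1 core base other than A or T, a form added to the search after the sequences were seen.

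Lrat, chr3:82903975-82904224, minus strand: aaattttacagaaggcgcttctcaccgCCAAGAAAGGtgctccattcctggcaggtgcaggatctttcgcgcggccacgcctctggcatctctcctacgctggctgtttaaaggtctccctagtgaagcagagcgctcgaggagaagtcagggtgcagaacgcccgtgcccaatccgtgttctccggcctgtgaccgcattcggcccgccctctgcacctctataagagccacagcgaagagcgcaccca
Reln, chr5:22344706-22344955, minus strand: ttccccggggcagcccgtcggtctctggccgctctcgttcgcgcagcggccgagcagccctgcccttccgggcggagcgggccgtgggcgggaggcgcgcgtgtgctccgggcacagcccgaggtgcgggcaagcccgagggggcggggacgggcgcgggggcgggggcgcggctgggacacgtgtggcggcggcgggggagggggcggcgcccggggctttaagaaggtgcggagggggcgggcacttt
Acta2, chr19:34255374-34255623, minus strand: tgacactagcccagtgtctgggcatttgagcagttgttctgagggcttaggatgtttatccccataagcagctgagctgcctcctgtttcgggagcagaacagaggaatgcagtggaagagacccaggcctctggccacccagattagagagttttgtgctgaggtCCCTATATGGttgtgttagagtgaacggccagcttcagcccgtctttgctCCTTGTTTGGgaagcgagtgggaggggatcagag

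No member held a CArG box with a full A and T core, which 1.47% of the 32851 promoters held. The form with 1 other core base occurred at 2 positions in Acta2 and at 1 in Lrat, and in 7.24% of all promoters. TATAAA occurred in Ecm1 and Vim and in 12.4% of all promoters, and TGANTCA in Ecm1 and in 6.75% of all. Reln held none of these motifs, and its 250 bases were 80% G and C, against a median of 52.4% over all promoters. These are matches of letters, and no measurement here bears on the binding of a factor.

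Counts in related gene lists are read against all tested genes, of which 43.5% were lower and 2.56% higher in the deposited values and 14.2% lower and 13.8% higher after median-ratio scaling. With the length trend removed 11.5% were lower and 9.54% higher. Lower there were 5 of 16 quiescence, 4 of 19 retinoid, 1 of 18 myofibroblast, 2 of 13 PDGF and 3 of 9 HGF genes. So were 1 of 13 TGF-β and 1 of 4 reelin genes. Among markers of other cells, 12 of 16 endothelial, 8 of 14 macrophage and 2 of 8 portal fibroblast ones were lower. Higher were 1 each of the quiescence, retinoid, HGF, reelin and portal fibroblast lists and 4 of 15 hepatocyte markers. Other genes of quiescent stellate cells moved unequally. Of 18 listed, 16 were tested, 9 (56.2%) were called lower, 0 higher and 7 were not called, with a median log2 fold change of -0.95, while median-ratio scaling left 6 (37.5%) lower and 1 higher. Of the 9, Lhx2, Ngfr and Vipr1 passed the filter through vehicle alone and could only be lower. Bgn, a small matrix proteoglycan, was at 4.71, 20.2 and 3.86 FPKM in treated libraries 1, 3 and 4, against 57.1, 64.7 and 44.7 in vehicle libraries 1, 2 and 4 (log2 fold change -2.74, limma adjusted p = 0.0036). Colec10, which encodes the partner of collectin-11, was lower by limma (-2.06, adjusted p = 0.0020), and was at 1.43, 0.56 and 0.36 FPKM in treated libraries 1, 3 and 4, against 7.94, 4.52 and 6.52 in vehicle libraries 1, 2 and 4. Bmp5, a ligand of the BMP family, and Cygb, the stellate cell globin, had log2 fold changes of -1.84 and -1.86. Bmp5 was called in each of the 20 settings, whereas Cygb was not called after median-ratio scaling (adjusted p = 0.0752), in ONX-0914 3 alone (-0.46, adjusted p = 0.263), or without ONX-0914 1, ONX-0914 4 or vehicle 1 (adjusted p = 0.0741, 0.0811 and 0.0735). Cygb was at 6.35 FPKM in ONX-0914 3 and at 0.69 and 0.77 in the other treated libraries, against 12.7, 7.62 and 7.87 in vehicle libraries 1, 2 and 4.

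Of 24 genes of retinoid storage and retinoid signalling, 19 were tested, 14 (73.7%) fell, 1 of them (Rarb) having entered through vehicle alone, 0 rose and 5 did not pass, with a median of -0.96. After median-ratio scaling 4 (21.1%) were lower and 2 (10.5%) higher. Rxra, a retinoid X receptor that hepatocytes also express, was at 2.31, 11.1 and 2.86 FPKM in treated libraries 1, 3 and 4, against 41.4, 46.7 and 49.95 in vehicle libraries 1, 2 and 4 (log2 fold change -3.13, limma adjusted p = 0.0018). Ces1d and Pnpla3, lipid and retinyl ester hydrolases, had log2 fold changes of -2.01 and -1.98, and Lpl, lipoprotein lipase, one of -1.76. Rbp4, the plasma carrier of retinol, stood at 0.01 (adjusted p = 0.983), and at 0.81 (adjusted p = 0.0758) scaled by median ratio.

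Of 25 genes of myofibroblasts and their matrix, 18 were tested, 7 (38.9%) fell, 0 rose and 11 did not pass, a share under that of all tested genes, with a median of -0.76. After median-ratio scaling 2 (11.1%) were lower and 1 higher, also under the shares of all genes. Postn, among the 7, entered through vehicle alone. Col1a1, a chain of type I collagen, was at 1.17, 1.80 and 1.04 FPKM in treated libraries 1, 3 and 4, against 5.58, 5.81 and 4.92 in vehicle libraries 1, 2 and 4 (log2 fold change -1.47, limma adjusted p = 0.0027). Ccn2, a matricellular protein induced by TGF-β, stood at -1.67 (adjusted p = 0.0280), Cnn2, a calponin, at -1.42 and Spon2, a spondin, at -1.33. Ccn2, at 0 FPKM in ONX-0914 4, lost its call without that library (-1.003, adjusted p = 0.0532), without ONX-0914 1 or any 1 vehicle library (adjusted p from 0.0504 to 0.0851) and after median-ratio scaling (adjusted p = 0.141). Tagln, an actin-binding protein of contractile cells, was at 35.3, 29.2 and 10.2 FPKM in treated libraries 1, 3 and 4, against 41.8, 29.6 and 33.5 in vehicle libraries 1, 2 and 4 (-0.63, adjusted p = 0.224, and 0.14 scaled by median ratio). The summed level of the list was 405 to 644 FPKM in treated and 516 to 591 in vehicle libraries, so it overlapped between groups.

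The ligands and receptors around the members gave further counts. Of 15 PDGF pathway genes 13 were tested and 11 (84.6%) fell, 0 rose, against 5 (38.5%) and 0 after median-ratio scaling. Pdgfb, a ligand of both receptors, was at 0, 1.07 and 0 FPKM in treated libraries 1, 3 and 4, against 1.86, 1.30 and 1.56 in vehicle libraries 1, 2 and 4 (log2 fold change -1.01, limma adjusted p = 0.0202). Scaled by median ratio Pdgfb was at -0.76 and not called (adjusted p = 0.0847). Ptpn11, the phosphatase SHP2 that binds activated receptors, had a log2 fold change of -2.26, and Pik3r1, Shc1 and Gab1, which couple receptor kinases to their pathways, had -1.95, -1.74 and -1.31. Gab1, also in the HGF list, passed the filter through vehicle alone. Of 13 HGF pathway genes 9 were tested, 4 (44.4%) fell and 0 rose with a median of -0.66, both close to all tested genes, and after median-ratio scaling 4 were lower and 2 higher with a median of 0.13. Met, the receptor, was at 0.37, 2.11 and 0.81 FPKM in treated libraries 1, 3 and 4, against 8.63, 10.6 and 9.11 in vehicle libraries 1, 2 and 4 (log2 fold change -2.40, limma adjusted p = 0.0016), so ligand and receptor were both lower. Ptprj, a phosphatase that acts on MET, and Plau, the urokinase, were at -1.84 and -1.63, Plau having entered through vehicle alone. Hgfac and Hpn, proteases that activate the HGF precursor, did not pass, at -0.30 (adjusted p = 0.273) and -0.39 (adjusted p = 0.124), and turned to 0.49 and 0.41 scaled by median ratio. Of 20 TGF-β pathway genes 13 were tested, and 12 (92.3%) fell and 0 rose, which became 2 (15.4%) and 0 scaled by median ratio. Those 2 were Tgfbr2 and Ski. Tgfbr2, the type II receptor, stood at -2.42 (adjusted p = 0.0012), and Eng, Ski and Smad2, a coreceptor, a repressor and a signal transducer, had -1.56, -1.51 and -1.35. Tgfb1, the ligand, was at 7.91, 4.12 and 5.77 FPKM in treated libraries 1, 3 and 4, against 13.7, 12.4 and 9.83 in vehicle libraries 1, 2 and 4 (-0.93, adjusted p = 0.0264). After median-ratio scaling Tgfb1 was at -0.21 and not called (adjusted p = 0.643). Of 10 genes of the reelin pathway 4 were tested, and 3 (75%) fell and 0 rose, against 2 and 0 after median-ratio scaling, the adaptors Crkl and Crk at -1.69 and -1.20 and the kinase Fyn at -1.36. The reelin receptor genes Vldlr and Lrp8 were at no more than 0.03 FPKM in treated and 0.82 FPKM in vehicle libraries.

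**Figure D5:**
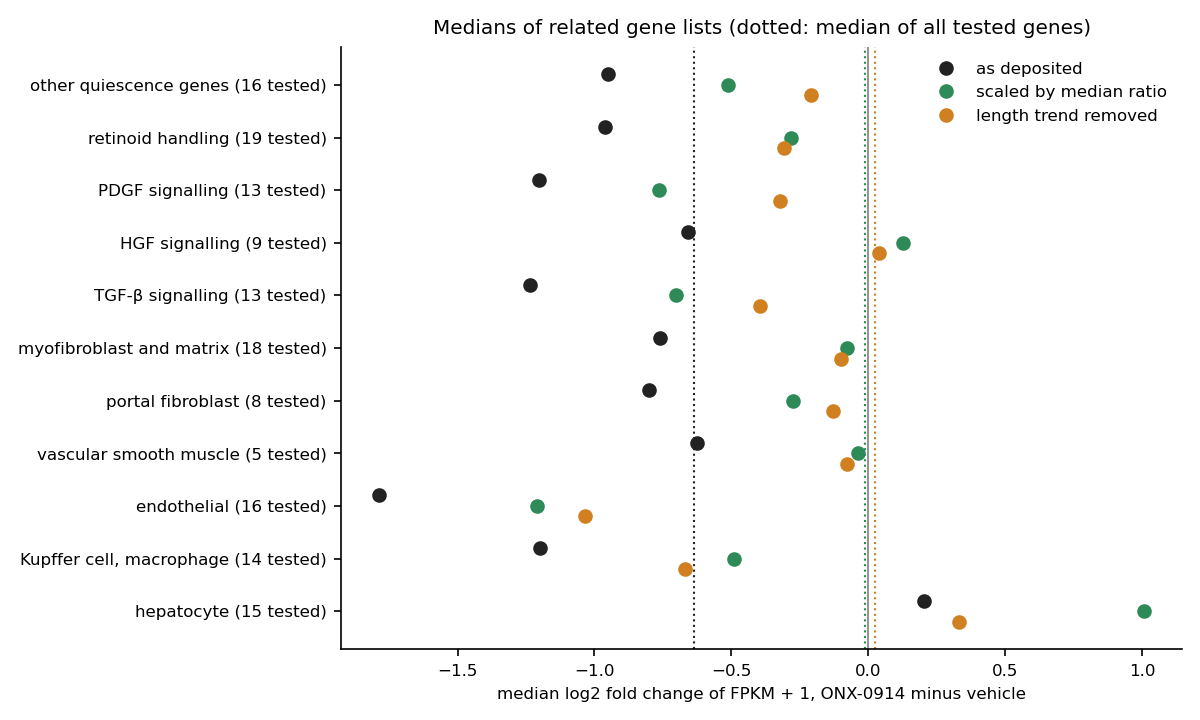
Median log2 fold change of FPKM + 1, ONX-0914 minus vehicle, of the tested genes in the related lists, for deposited values, median-ratio scaling and length-trend removal. The reelin and mesothelial lists are not shown. Dotted lines are the medians of all tested genes. The endothelial list lies farthest to the left at -1.79, -1.21 and -1.04, and the hepatocyte list lies to the right of every other list.

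Markers of other cells that could hold the same transcripts moved as well. All 16 endothelial markers were tested and fell (Dnase1l3, Pecam1, Cdh5 and Oit3 at -3.39, -2.69, -2.58 and -2.51), 12 (75%) of them also after median-ratio scaling and 12 after length-trend removal, and their summed level was 50.5 to 88.3 FPKM in treated and 280 to 293 in vehicle libraries. Kdr, Tek and Flt4 among them passed the filter through vehicle alone. Of 14 Kupffer cell and macrophage markers 10 (71.4%) fell (Cd5l, Adgre1, Slc40a1 and Vsig4 at -2.20, -2.04, -1.97 and -1.79), 0 rose and 4 did not pass, against 5 (35.7%) and 0 after median-ratio scaling, with sums of 846 to 1233 FPKM in treated and 1673 to 2527 in vehicle libraries. The 4 that did not pass were Clec4f, C1qa, Marco and Folr2 at -0.01, -0.01, 0.14 and 0.19, and at 0.79, 0.78, 0.91 and 0.98 after median-ratio scaling, again not called. Endothelial cells and macrophages contain Vim, and their part in its fall was not tested. Of 14 portal fibroblast markers 8 were tested and 5 (62.5%) fell, 0 rose (Cd34, Dpt, Ly6a and Col15a1 at -1.76, -1.22, -0.93 and -0.88), against 1 lower and 1 higher after median-ratio scaling, with sums of 87.1 to 133 FPKM in treated and 119 to 140.0 in vehicle libraries. The 1 lower there was Cd34 (limma adjusted p = 0.0128) and the 1 higher was Gas6, at 1.49 (adjusted p = 0.0194). As deposited Gas6 was at 0.71 and not called (adjusted p = 0.0567). It was at 76.1, 40.1 and 53 FPKM in treated libraries 1, 3 and 4, against 38.4, 34.9 and 26.8 in vehicle libraries 1, 2 and 4. Of 14 vascular smooth muscle markers 5 were tested, 1 (20%) fell and 0 rose, against 1 lower and 1 higher after median-ratio scaling, with sums of 47.1 to 119 FPKM in treated and 79.3 to 98.5 in vehicle libraries. That 1 gene, Mcam at -1.67, entered through vehicle alone, as did Cd34 among the portal fibroblast markers. Myh11 was at no more than 0.33 FPKM in treated and 0.35 in vehicle libraries and Myocd at 0 in all 6. Others of the list, Tagln among them, were well above 0. Mustn1 was at 67.6, 35.1 and 31.4 FPKM in treated libraries 1, 3 and 4, against 36.1, 34.1 and 32.9 in vehicle libraries 1, 2 and 4. Rgs5 was at 12.5, 4.64 and 4.30 against 12.8, 8.98 and 20.2. Mustn1 was the 1 higher after median-ratio scaling (1.07, limma adjusted p = 0.0465). The part of smooth muscle in Acta2 was not tested. Of 8 mesothelial markers 1 was tested and did not pass, with Upk3b and Muc16 at 0 in all 6 libraries and sums of 0.640 to 2.30 FPKM in treated and 2.16 to 2.85 in vehicle libraries. Of 16 hepatocyte markers 15 were tested, and 4 (26.7%) fell and 3 rose (the plasma proteins Hp and Fgb at 1.35 and 1.17, the transcription factor Hnf4a and the urea cycle enzyme Cps1 at -2.23 and -1.66), against 0 lower and 6 higher after median-ratio scaling, with sums of 123520 to 165450 FPKM in treated and 119010 to 121530 in vehicle libraries.

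Genes outside the members that followed Lrat most closely over the 6 libraries, by Pearson correlation of log2(FPKM + 1), were Adrb3, Bmyc, Slc22a27, Fcf1 and Slc25a4, with r from 0.973 to 0.997. For Acta2 they were Lrp4, Chd2, Snap23, Col14a1 and Rras2, with r from 0.997 to 0.998. The lists share no gene: those near Lrat were highest, among treated libraries, in ONX-0914 1, and those near Acta2 were lowest in ONX-0914 4 and highest, among treated libraries, in ONX-0914 3. These correlations are over 6 libraries in 2 groups and are given as descriptions.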

How the data were processed

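Liver RNA of 3 ONX-0914 and 3 vehicle libraries was extracted with TRIzol, enriched for mRNA and sequenced as paired reads of 150 bases, per the labels' protocols. Tools listed in the submitters' processing notes, without roles, are HISAT2 2.0.1, featureCounts 1.6.0, cutadapt 1.11, FastQC 0.11.5 and edgeR, and the builds mm10 and GRCm38. The deposited matrix holds FPKM made by the authors, with 2 decimals. No header states the unit, which was inferred from the values. Whether counting used strand is not stated. Exons of Reln, Hgf, Ecm1, Pdgfra and Des overlap other annotated transcripts, whose reads cannot be told apart from theirs here. All columns matched a sample title.

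Genes above 1 FPKM in at least 3 libraries (10743) were fitted on log2(FPKM + 1) by limma 3.58.1 under R 4.3.3 (trended variance, two-sided, no replicate block), and the fit was tested on simulated data. On this scale the change of genes with low values is understated. Transcript lengths came from GENCODE M21, known for 98.2% of tested genes, and the length trend was a lowess curve (span 0.3) of each library against the vehicle mean.

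Named genes are the 10 members, up to 4 called genes of largest fold change with a mean of at least 1 FPKM per related list, defining genes of other cell types, and the 5 genes nearest to Lrat and to Acta2. Beyond that rule, Rbp4, Tagln, Pdgfb, Hgfac, Hpn, Tgfb1, Vldlr, Lrp8, Lhx2, Ngfr, Vipr1, Rarb, Postn, Kdr, Tek, Flt4, Gas6, Mustn1, Rgs5, C1qa, Marco, Folr2 and Clec4f were chosen after their values were seen. Some lists share genes, Tagln, Gab1, Crk, Eng, Rgs5 and Actg2 among those named. 1 gene of these lists is not reported here. Members and lists were chosen with earlier results of these data known. In all, 19 alternative settings were fitted.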

Additional observations from a re-analysis of the deposited data

How the results depend on the processing

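Members called lower numbered 7 of 9 as deposited, 3 scaled by median ratio, 3 by upper quartile, 1 quantile normalized (Reln) and 2 with the length trend removed. Pdgfrb, which passed the filter through vehicle alone, is among the 7 and in both sets of 3. Leaving out 1 library gave 6 to 8 (Ecm1 added without ONX-0914 1, Lrat lost without any other), and members called higher stayed at 0 in every setting. Genes called lower numbered 4673 as deposited, 1527 scaled by median ratio, 1956 by upper quartile, 1334 quantile normalized, 1231 with the length trend removed, 3062 at a fold threshold of 1 on the log2 scale, 2992 in ONX-0914 3 alone and 2590 to 6514 without 1 library (6514 without ONX-0914 3). Genes called higher numbered 275, against 1481, 1074, 1118 and 1025 in the first 4 of these settings, 171 with equal sums, 110 with the fold threshold and 92 to 740 without 1 library. The cause was not tested. Quiescence minus activation, -0.04 as deposited, was -0.37 in ONX-0914 3 alone, 0.06 with the length trend removed and -0.17 to 0.12 without 1 library.

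Ecm1 turned to 0.33, 0.14, 0.10 and 0.031, and Des to 0.20, 0.057, 0.44 and 0.36, by median ratio, upper quartile, quantile and length trend, none of them called. Col15a1 turned to 0.047 with the length trend removed, not called. Ccn2, Col1a1, Cps1, Crk, Cygb, Dpt, Eng, Fyn, Gab1, Hnf4a, Shc1, Ski, Smad2 and Spon2 also lost their call there. Of the related genes named as called genes of largest fold change, Ccn2, Col15a1, Crk, Cygb, Dpt, Hnf4a, Ly6a, Pnpla3 and Spon2 lost their call without at least 1 library. Related genes named beyond that rule, such as Pdgfb and Tgfb1, were not examined in this way. Replicate numbers 1 and 4 occur in both groups. Their deviations correlated at 0.0011 and 0.13, and the labels do not say what the numbers mark, so they were not taken as pairs. A fit with the replicate block called the same 7 members lower, 604 genes higher and 5973 lower. Count-based tests had no counts to use. The absolute depth was not known, and Pdgfra, Pdgfrb and the reelin receptors rest on values near or under 1 FPKM.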
